A study of Pseudotsuga menziesii with 10 samples.

Results

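Transcript levels of Douglas-fir (Pseudotsuga menziesii) megagametophytes from pollinated and from unpollinated cones were compared on 30 June and 6 July 2011, the later pair of 4 collection dates. The comparison rests on 4 of the 10 libraries of the series, chosen by date and pollination state alone: 1 pollinated and 1 unpollinated library on each date. All came from field-grown ramets of 1 clone, genotype 970. Every cone was bagged before pollen release; on 9 May some bags received a mix of pollen from 6 genotypes and the others received none. Each library was made from a pool of 200 to 400 dissected megagametophytes. The labels describe the pollinated pools as megagametophyte with embryo and the unpollinated pools as megagametophyte, and place embryo growth, or early abortion in the unpollinated cones, at this time. The other 6 libraries are the 4 megagametophyte pools of 10 and 22 June and the cone scales and cone bracts of 26 May. With a single clone, a single season and 1 pool per date and state, no library has a replicate.

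The megagametophyte of a conifer is the haploid female gametophyte. It is formed before fertilization, bears the egg cells and becomes the tissue that feeds the embryo, so a conifer ovule lays down much of its seed before it is known whether an embryo will be present. In Douglas-fir a long interval separates pollination from fertilization, and the megagametophyte of an unpollinated ovule can go on developing for a time before it degenerates. After fertilization the embryo, a diploid tissue with a paternal genome, is pushed into the corrosion cavity that opens inside the megagametophyte. A pollinated pool can therefore hold transcripts of the embryo and of pollen as well as those of the megagametophyte, and in a pool fewer cells of a type and less RNA per cell cannot be told apart.

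Levels are given in FPKM, which scales fragments by the length of the contig and the size of the library. They were read from a deposited log table taken as log2(FPKM + 1). A contig is an assembled transcript. The table holds 54889 contigs under accession numbers and pairs none of them with a gene name, so contigs are named by number and neither their function nor the tissue markers of the pools could be read. Contigs at 10 FPKM or more numbered 8682 to 8738 in the 4 libraries. Contigs at 1 FPKM or more numbered 26120 and 23178 on 30 June and 24632 and 25242 on 6 July, pollinated first. Between 26.7% and 32.7% of contigs lay in a cluster of lowest values, at or under 0.1 on the log scale. Read numbers are unknown, so no counting error is given. As a stand-in for tissue markers, 602 contigs at 10 FPKM or more in scales and bracts but under 1 FPKM in both libraries of 10 June were followed. Pollinated first, their summed level was 961 and 799 FPKM on 30 June and 3066 and 3000 FPKM on 6 July, against 24817 FPKM in scales and 33397 FPKM in bracts. Conversely, 1067 contigs that reached 10 FPKM in each library of 10 June and stayed under 1 FPKM in scales and bracts summed to 5279 and 7122 FPKM on 30 June and to 5191 and 5217 FPKM on 6 July, pollinated first.

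On 30 June some transcripts were abundant in pollinated megagametophytes and barely detected in unpollinated ones. GAZW02094698 stood at 94.7 FPKM in the pollinated and 0.0425 FPKM in the unpollinated library, and GAZW02053960 at 169.1 and 0.919 FPKM. In the other direction GAZW02059139 stood at 0.0497 FPKM in the pollinated and 60.0 FPKM in the unpollinated library, and GAZW02045926 at 0.0497 and 54.3 FPKM. These are the widest gaps of the date in each direction, 6.52, 6.47, -5.86 and -5.72 log2(FPKM + 1) units, pollinated minus unpollinated. Contigs were counted as apart when the states differed by 2-fold or more on the log2(FPKM + 1) scale and the higher value reached 10 FPKM. Of the 9690 contigs that reached 10 FPKM in either library, 937 were apart (9.67%), 459 higher in pollinated (4.74%) and 478 in unpollinated megagametophytes (4.93%). At 4-fold or more the counts were 121 and 171, and at 16-fold or more 28 and 27.

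On 6 July 824 of 9639 contigs were apart (8.55%), 431 higher in pollinated (4.47%) and 393 in unpollinated megagametophytes (4.08%). At 4-fold or more 84 and 111 remained, and at 16-fold or more 21 and 26. On the side of the pollinated library the gap was widest for GAZW02094053, at 55.1 against 0.659 FPKM, and for GAZW02097351, at 29.9 against 0.0353 FPKM. Only the first of these was also higher in the pollinated library on 30 June (20.4 against 0.0425 FPKM), while GAZW02097351 then stood at 9.34 against 37.9 FPKM. GAZW02094053 was higher with pollen before these dates too, at 50.6 against 1.36 FPKM on 10 June and 37.3 against 0.0425 FPKM on 22 June. It was the only contig apart toward the pollinated library on all 4 dates. On the unpollinated side GAZW02071698 stood at 0.149 FPKM in the pollinated and 85.8 FPKM in the unpollinated library, and GAZW02039464 at 0.0425 and 57.9 FPKM. Both were higher in the unpollinated library on 30 June too.

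Contigs of low level were more often apart. On 30 June 12.4% of the 3923 contigs whose higher value lay between 10 and 20 FPKM were apart, 7.88% of the 4896 between 20 and 100 FPKM and 7.58% of the 871 at 100 FPKM or more. On 6 July the shares were 11.3%, 6.64% and 7.09%. Of the contigs at 100 FPKM or more, 39 were higher in the pollinated and 27 in the unpollinated library on 30 June, and 35 and 29 on 6 July. The balance of directions turned with the minimum level: with the higher value at only 1 FPKM, 2404 and 1714 contigs were apart toward the pollinated and the unpollinated library on 30 June, and 1981 and 2113 on 6 July. On each date the favoured library was also the one with more contigs at 1 FPKM or more. These numbered 26120 and 23178 on 30 June and 24632 and 25242 on 6 July, pollinated first. The part of this in the balance was not tested. No test is possible for a single date, since each state has 1 library.

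The dates were then compared for what they share in direction. A set of 99 contigs was 2-fold or more higher in pollinated megagametophytes on both dates, 1.18% of the 8366 contigs at 10 FPKM or more on both, and 92 were 2-fold or more higher in unpollinated ones on both (1.1%). The 99 make up 21.6% of the contigs higher in pollinated megagametophytes on 30 June and 23.0% of those on 6 July. The 92 make up 19.2% and 23.4% of the corresponding sets on the unpollinated side. Opposite directions were found for 36 contigs (0.43%), of which 14 were higher in the pollinated library on 30 June and 22 on 6 July. At 4-fold or more, 28 contigs pointed the same way and 12 the opposite way, and at 8-fold or more 15 and 7.

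**Figure D1:**
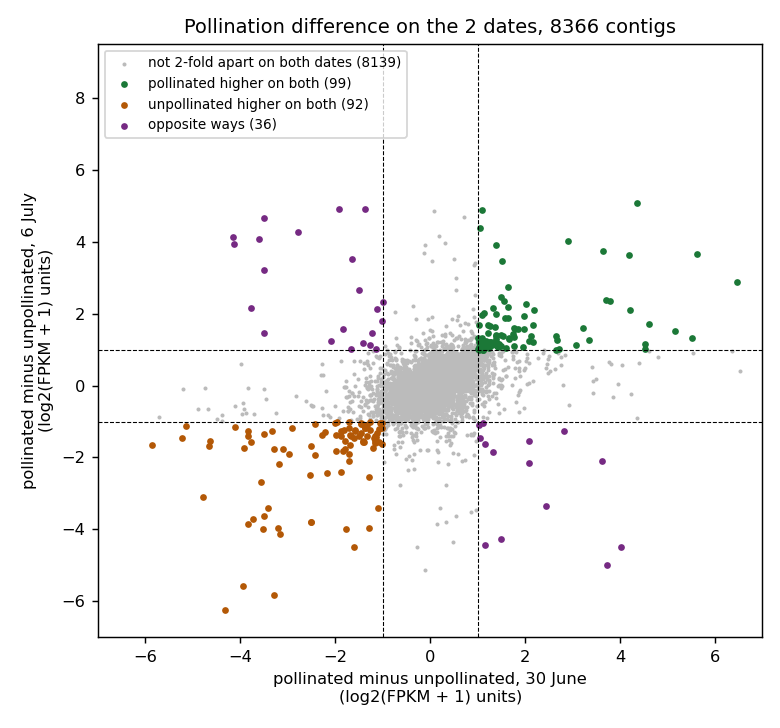
Difference between pollinated and unpollinated megagametophytes on 30 June (horizontal axis) and 6 July (vertical axis), both in log2(FPKM + 1) units, for the 8366 contigs at 10 FPKM or more on both dates, with 1 point per contig and dashed lines at 2-fold. The 99 and 92 contigs that were 2-fold or more apart in the same direction lie in the upper right and lower left, and the 36 of opposite direction in the other corners, while many contigs far from 0 on one date lie near 0 on the other.

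In each of the 4 sets of contigs apart on 1 date, more contigs had the same sign on the other date than the opposite one. Of the 459 higher in pollinated megagametophytes on 30 June, 358 were also higher there on 6 July, with a median difference of 0.66 log2(FPKM + 1) units. Of the 478 higher in unpollinated megagametophytes on 30 June, 361 were also higher there on 6 July, with a median of -0.42. Of the contigs apart on 6 July, 340 of the 431 higher with pollen and 258 of the 393 higher without had the same sign on 30 June, with medians of 0.73 and -0.51. Among all 25621 contigs whose 4 libraries averaged 1 FPKM or more, 47.8% were higher in the pollinated library on 6 July and the median was -0.02. On 30 June 54.3% of them were higher in the pollinated library and the median was 0.05. Across these contigs the differences of the 2 dates correlated at r = 0.27, and 63.1% of the 25053 contigs with a difference other than 0 on both dates had the same sign. Contigs are not independent replicates, and this correlation carries no p-value. The 2 dates share no library.

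The contigs higher in pollinated megagametophytes on both dates included some that were low in every unpollinated pool. GAZW02083053 stood at 50.3 and 33.1 FPKM with pollen on 30 June and 6 July, and at 0.0425 and 1.68 FPKM without. Its levels on 10 and 22 June were 5.19 and 1.55 FPKM with pollen and 3.72 and 0.0425 FPKM without, and scales and bracts held 0.778 and 0.932 FPKM. The high values of this contig are thus the 2 late pollinated libraries.

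GAZW02053960 followed a later course in both states, at 169.1 and 429.5 FPKM on 30 June and 6 July with pollen and at 0.919 and 57.9 FPKM without, and under 0.5 FPKM in all 4 libraries of 10 and 22 June. GAZW02026831, a further contig of this kind picked after its values were seen, stood at 18.3 and 507.5 FPKM with pollen and at 0.395 and 99.4 FPKM without. In both contigs the unpollinated library of 6 July held far more than that of 30 June and still less than the pollinated one. GAZW02094698, with the widest gap on 30 June, differed here: it reached 432.5 FPKM with pollen and 327.6 FPKM without on 6 July, so that its difference went from 6.52 to 0.40 log2(FPKM + 1) units. GAZW02083056, chosen after its values were seen, likewise stood at 218.8 against 71.5 FPKM on 30 June and at 323.0 against 265.9 FPKM on 6 July.

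The contigs higher in unpollinated megagametophytes on both dates included some that were low in every pollinated pool. GAZW02071698 stood at 112.0 and 85.8 FPKM on 30 June and 6 July without pollen and at 4.66 and 0.149 FPKM with it, and did not exceed 4.21 FPKM in any other library. GAZW02022230 stood at 15.7 and 49.2 FPKM without pollen and at 0.0792 and 0.0497 FPKM with it. This contig was under 0.65 FPKM in all 4 libraries of 10 and 22 June, but bracts held 34.8 FPKM and scales 3.66 FPKM. GAZW02039464 stood at 69.0 and 57.9 FPKM without pollen, and at 6.16 and 0.0425 FPKM with it, while scales held 9.20 and bracts 11.1 FPKM.

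**Figure D2:**
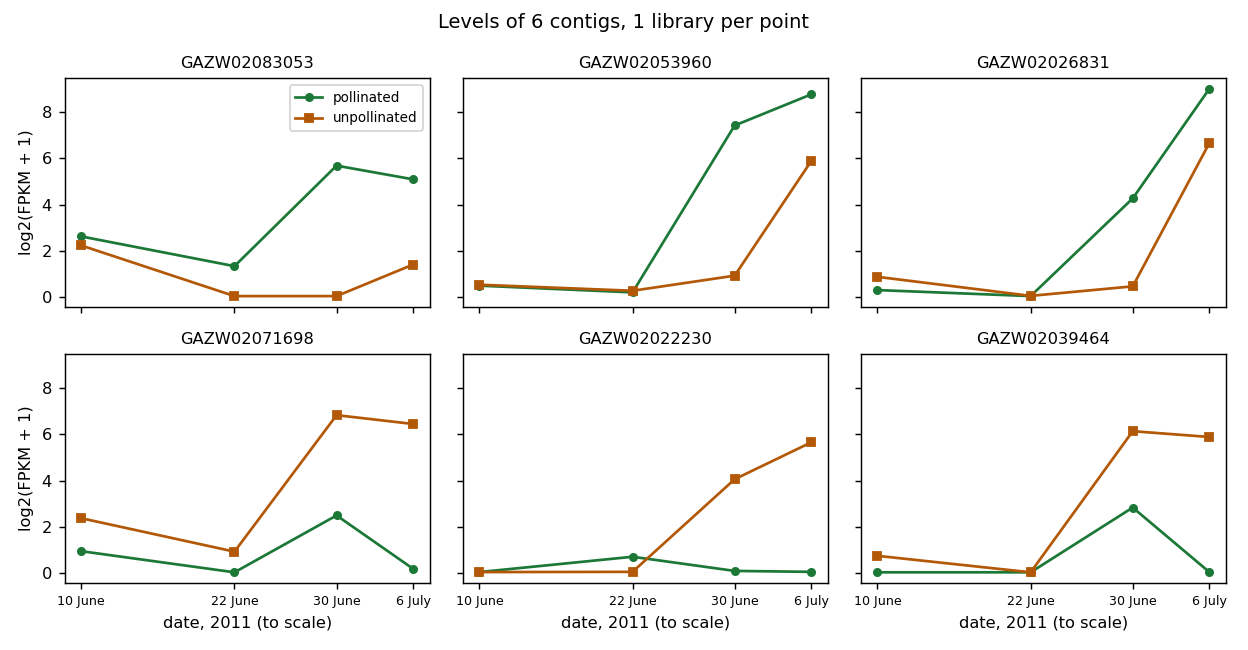
Level in log2(FPKM + 1) (vertical axis) of 6 contigs over the 4 dates (horizontal axis, days to scale), with 1 library per point, pollinated in green circles and unpollinated in orange squares. In the upper row the pollinated libraries of 30 June and 6 July lie above the unpollinated ones, and in the lower row below them; GAZW02053960 and GAZW02026831 reach 57.9 and 99.4 FPKM without pollen on 6 July.

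The pair of both-date sets was described further by libraries that had no part in choosing them. On 22 June the contigs higher with pollen on both late dates leaned the other way: 28 of 99 were higher and 68 lower in the pollinated library, with a median of -0.32 log2(FPKM + 1) units. Of the 92 contigs higher without pollen, 53 were higher in the pollinated library of 22 June and 37 lower, with a median of 0.295. On 10 June the medians were 0.20 and -0.31, in the late direction. Over the 8366 contigs at 10 FPKM or more on both late dates, the median was 0 on 10 June and on 22 June. Apart by 2-fold or more in the late direction on the early dates were 5 of the 99 on 10 June and 5 on 22 June, and 9 and 2 of the 92. Apart in the other direction were 2 and 6 of the 99, and 9 and 15 of the 92. Of the 8366 contigs, 3.02% were apart toward the pollinated and 1.12% toward the unpollinated library on 10 June, and 1.29% and 0.98% on 22 June.

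Levels in cone tissue also differed between these sets. The contigs higher without pollen had medians of 11.1 FPKM in scales and of 15.2 FPKM in bracts, and 60 of 92 were higher in bracts than in scales. Those higher with pollen had medians of 5.73 and 3.50 FPKM, and 25 of 99 were higher in bracts. In the 8366 contigs the medians were 19.0 and 17.5 FPKM, with 41.1% higher in bracts. At 10 FPKM or more in bracts were 61 of the 92 (66.3%) and 27 of the 99 (27.3%), against 67.9% of the 8366. Of the 602 cone-tissue contigs described above, 7 were apart toward the unpollinated and 4 toward the pollinated library on 30 June, and 12 and 12 on 6 July, with median differences of 0.05 and 0. These are 1.16% and 0.664% of the list on 30 June and 1.99% on each side on 6 July. Of the 25621 contigs the shares were 1.87% and 1.79%, then 1.53% and 1.68%. Of the contigs at 10 FPKM or more in either library of the date, they were 4.93% and 4.74%, then 4.08% and 4.47%. No test was made of these shares, since the sets were chosen by their values.

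The differences of 30 June were set beside the course of development, using only libraries of other dates to define that course; these lists were added after the data were seen. In 618 contigs the level was 4-fold or more higher on 6 July than on 22 June in both states, with 10 FPKM or more in 1 of these libraries. On 30 June 519 of them were higher in the pollinated library, with a median difference of 0.65 log2(FPKM + 1) units, and 111 were apart toward it (18.0%) against 11 toward the unpollinated library (1.78%). Their summed level on 30 June was 25174 FPKM with pollen and 12814 FPKM without. In 829 contigs the level was 4-fold or more lower on 6 July than on 22 June. On 30 June 706 of these were lower in the pollinated library, with a median of -0.66, and 109 were apart toward the unpollinated library (13.1%) against 5 toward the pollinated one. Their summed level was 4808 FPKM with pollen and 11142 FPKM without. Over all 25621 contigs the median on 30 June was 0.05, with 1.79% apart toward the pollinated and 1.87% toward the unpollinated library. Being apart requires 10 FPKM, a level that many of these contigs do not reach. Of the 9690 contigs at 10 FPKM or more in either library of 30 June, the shares were 4.74% and 4.93%. On 22 June, a date used to set the lists, the 829 contigs lay the other way: 714 were higher in the pollinated library, with a median of 0.57, and 202 were apart toward it (24.4%). The 618 contigs then had a median of -0.07, with 193 higher and 374 lower in the pollinated library. Together these lists hold 24.2% of the 459 contigs higher with pollen on 30 June and 22.8% of the 478 higher without, counting for each the list of the matching direction.

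For 6 July the corresponding lists were set by the levels of 22 and 30 June, so they are not the lists followed on 30 June. The rising list set in this way showed no gap toward the pollinated library on 6 July. Of 137 contigs 4-fold or more higher on 30 June than on 22 June in both states, 55 were higher and 80 lower in the pollinated library of 6 July, with a median of -0.14. In this list 9 were apart toward the pollinated and 28 toward the unpollinated library (20.4%). Of 708 contigs 4-fold or more lower on 30 June, 167 were higher and 449 lower in the pollinated library of 6 July, with a median of -0.07. Apart toward the pollinated and the unpollinated library were 6 and 3. The summed levels of this list were 2693 FPKM with pollen and 2350 FPKM without. Its median levels were 0.0943 and 0.257 FPKM, far under the 10 FPKM that being apart requires. Over all 25621 contigs the median on 6 July was -0.02, with 1.68% apart toward the pollinated and 1.53% toward the unpollinated library. Of the 9639 contigs at 10 FPKM or more in either library of 6 July, these shares were 4.47% and 4.08%. Lists set by 10 and 22 June alone, 137 contigs higher and 621 lower on the second of these dates, had medians of -0.09 and 0.01 on 30 June and of -0.19 and 0 on 6 July. Apart toward the unpollinated and the pollinated library were 11 and 4 of the 137 on 30 June and 15 and 3 on 6 July, and 4 and 7 of the 621 on 30 June and 2 and 8 on 6 July.

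**Figure D3:**
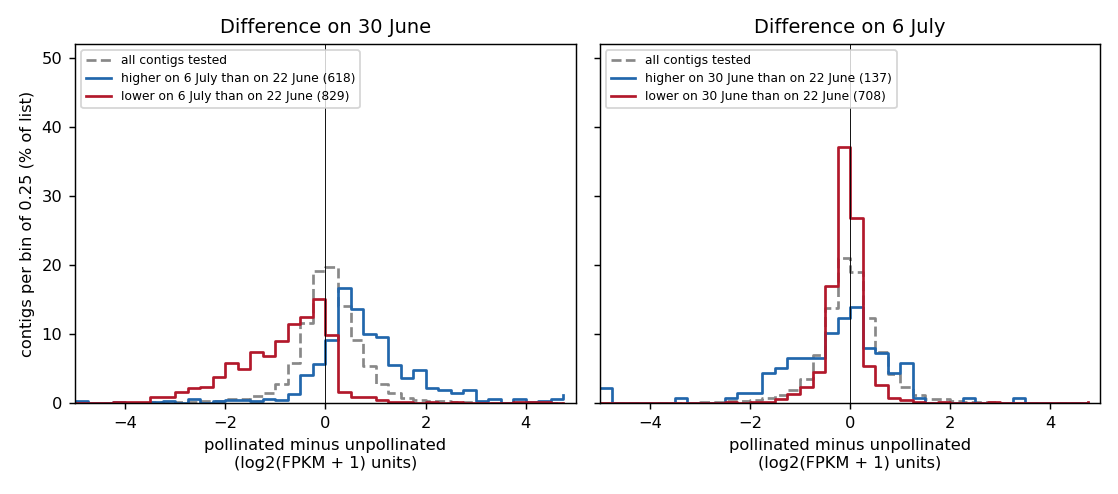
Share of contigs in each bin of 0.25 log2(FPKM + 1) units (vertical axis, % of the list) by the difference between pollinated and unpollinated megagametophytes (horizontal axis; differences beyond 5 are put in the last bin), on 30 June for lists set by 22 June and 6 July and on 6 July for lists set by 22 and 30 June, with all 25621 contigs tested as a dashed line. On 30 June the lists lie on opposite sides of 0, with medians of 0.65 and -0.66. On 6 July the other lists, set by 22 and 30 June, have medians of -0.14 and -0.07.

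A test of the difference over both dates was made with limma, with date as a block, on the 25621 contigs averaging 1 FPKM or more. No contig passed at a Benjamini-Hochberg adjusted p of 0.05 (0 of 25621, 0.0%), and the smallest limma adjusted p was 0.355. An unadjusted limma p under 0.05 was reached by 3212 contigs (12.5%), 1884 higher with pollen and 1328 lower. A share of 0.05 of the contigs tested would be 1281. All these p-values rest on the same 4 libraries and contigs are not independent, so the excess cannot be read as a number of real differences. In data simulated from these libraries with 50 contigs changed at each size, the fit recovered 0% of contigs changed 2-, 4-, 8- or 32-fold. The simulated noise of each contig was set by its gap between the states within dates, which contains any pollination difference. The error of the fit is instead the change of that difference between dates, so this recovery does not give its power. The fit has 1 residual degree of freedom, and the count of 0 says little about the size of the differences.

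The contigs with the smallest p did not pass either, each with a limma adjusted p of 0.355. GAZW02090956 stood at 95.3 and 172.6 FPKM with pollen and at 20.1 and 39.2 FPKM without on 30 June and 6 July, a difference of 2.15 ± 0.11 (SE) log2(FPKM + 1) units. GAZW02094053 differed by 4.72 ± 0.27 log2(FPKM + 1) units in the same direction. On the other side GAZW02032235 stood at 0.0353 and 0.945 FPKM with pollen and at 12.7 and 24.6 FPKM without, a difference of -3.72 ± 0.21. GAZW02023800 stood at 0.0425 FPKM on both dates with pollen and at 13.9 and 14.1 FPKM without, a difference of -3.85 ± 0.24. All 4 had the same direction on 2 of 2 dates. The choice by smallest p favours this, since the error of the fit is the change of the difference between these dates. On the early dates only GAZW02094053 kept its direction throughout. Pollinated first, GAZW02032235 stood at 5.32 and 0.0497 FPKM on 10 June and at 8.51 and 20.3 FPKM on 22 June. GAZW02090956 stood at 19.0 and 3.11 FPKM, then at 23.9 and 40.1 FPKM. GAZW02023800 stood at 0.0867 and 5.77 FPKM, then at 4.86 and 3.20 FPKM.

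Whether the difference on the late dates was other than on 10 and 22 June was tested over all 8 megagametophyte libraries. In limma 0 of 27065 contigs passed (0.0%), while 2194 (8.11%) had an unadjusted p under 0.05, and the smallest adjusted p was 0.13. The simulation, with noise set in the same way and the same limit, recovered 0% of contigs changed up to 8-fold and 6% of those changed 32-fold. The smallest p values fell on contigs whose direction turned between the early and the late dates. GAZW02041675 stood at 0.0867 and 0.0425 FPKM with pollen and at 10.7 and 9.93 FPKM without on 10 and 22 June. On 30 June and 6 July it stood at 8.85 and 7.94 FPKM with pollen and at 0.0425 FPKM in both libraries without, a late minus early difference of 6.58 ± 0.34 (SE) with a limma adjusted p of 0.13. GAZW02041676 was its mirror image, at 19.4 and 14.1 against 0.395 and 0.0570 FPKM on the early dates and at 0.329 and 0.0644 against 12.6 and 8.78 FPKM on the late ones, a difference of -7.14 ± 0.33 with a limma adjusted p of 0.13.

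The next contig numbers repeated this exchange. GAZW02041677 went with GAZW02041675, at 35.5 and 12.4 FPKM without pollen on the early dates and at 11.8 and 12.8 FPKM with pollen on the late ones. It was at or under 0.117 FPKM in the other 4 megagametophyte libraries. GAZW02041678 went with GAZW02041676, at 30.8 and 16.6 FPKM with pollen on the early dates and at 13.0 and 17.5 FPKM without pollen on the late ones. Bracts held the first pair of contigs and scales the second. The sum of all 4 contigs hardly followed pollination: it was 21.5 and 25.7 FPKM on 30 June and 21.0 and 26.4 FPKM on 6 July, pollinated first, differences of -0.25 and -0.31 log2(FPKM + 1) units.

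**Figure D4:**
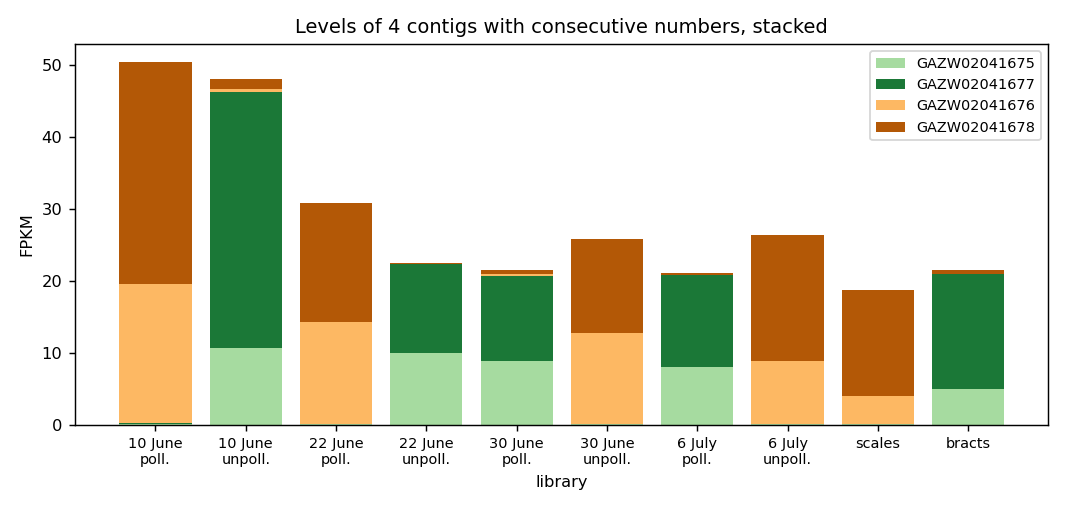
Levels in FPKM (vertical axis) of 4 contigs with consecutive numbers, stacked, in each of the 10 libraries (horizontal axis). Each library holds nearly only the green pair or nearly only the orange pair, and on 30 June and 6 July the green pair is in the pollinated and the orange pair in the unpollinated library, with sums of 21.0 to 26.4 FPKM.

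An opposite neighbour was defined as a contig within 5 numbers whose states differed 2-fold or more the other way, with no minimum level. The named contigs differed in having one. The neighbours given by number, GAZW02041678 included, were chosen after their values were seen. GAZW02023800, at 0.0425 FPKM with pollen on both late dates, had beside it GAZW02023801, at 18.3 and 20.7 FPKM with pollen and 0.0425 and 4.06 FPKM without, and their sums differed by 0.37 and 0.18 log2(FPKM + 1) units. GAZW02094053 had GAZW02094052 beside it, at 82.3 against 85.8 FPKM on 30 June and 40.6 against 83.4 FPKM on 6 July. Of the late dates only 6 July thus showed the opposite difference. The sums of this pair differed by 0.26 and 0.18 units. On the early dates GAZW02094052 was opposite too, at 0.0644 against 54.7 FPKM on 10 June and 33.1 against 71.5 FPKM on 22 June. The sums then differed by -0.14 and -0.02 units. GAZW02090956 had an opposite neighbour on 6 July, with which its sum differed by 0.08 units, and none on 30 June.

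GAZW02071698 and GAZW02022230 had opposite neighbours on both dates, but the sum with any one of them was still apart by at least 3.27 and 4.65 units for the first and 2.02 and 3.22 units for the second. GAZW02053960 had none on 30 June and one on 6 July, with a sum apart by 2.19 units. GAZW02083053, GAZW02026831, GAZW02094698, GAZW02039464 and GAZW02032235 had none on either date, with 3 to 8 neighbouring numbers present in the table.

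GAZW02020440, with a limma adjusted p of 0.13 in the late minus early test, stood at 171.4 and 131.5 FPKM with pollen and 307.7 and 232.9 FPKM without on the late dates. On 10 and 22 June it stood at 303.4 and 334.5 against 49.2 and 64.8 FPKM, so that its late minus early difference was -3.30 ± 0.17 (SE). Summed with GAZW02020438, it differed by -0.17 and 0.01 units on the early dates and by -0.30 and -0.15 units on the late ones.

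Over all contigs, an opposite neighbour was found for 286 of the 937 contigs apart on 30 June (30.5%) and 303 of the 824 on 6 July (36.8%), against 21.5% and 22.2% of the contigs at 10 FPKM or more that were not apart. Adding the 2 levels left the states less than 2-fold apart for 209 and 232 of the contigs apart (22.3% and 28.2%). The same held for 21.0% and 22.0% of the contigs at 10 FPKM or more that were not apart, whose own states already differed by less than 2-fold. Without contigs that have an opposite neighbour, 103 contigs remained apart the same way on both dates (59 with pollen, 44 without) and 13 in opposite ways. How the authors' counting divided reads among related contigs is not given in the sources used here, and its part in these differences was not tested.

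Some contigs turned between 30 June and 6 July. On 30 June GAZW02049419 stood at 15.9 FPKM with pollen and 0.0425 FPKM without, and on 6 July at 0.0644 and 23.1 FPKM. For GAZW02054249 the levels were 30.6 and 1.38 FPKM, then 0.0497 and 32.1 FPKM. In the other order GAZW02091633 stood at 0.0281 FPKM with pollen and 17.4 FPKM without, then at 17.0 and 0.0281 FPKM, and GAZW02019760 at 0.0718 and 17.8 FPKM and then at 15.1 and 0.0497 FPKM. For each a contig 2 to 6 numbers away differed the other way on 30 June. These neighbours were chosen after their values were seen. The sums with GAZW02049413, GAZW02054252, GAZW02091636 and GAZW02019762, in this order, differed by -0.31, 0.12, -0.18 and 0.18 log2(FPKM + 1) units on 30 June and by 0.17, -0.71, -0.27 and -0.13 on 6 July. An opposite neighbour was present for 19 of the 36 turning contigs on 30 June and 15 on 6 July.

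Contigs present in one state and near absent in the other were rarely the same on both dates. On 30 June 58 contigs were at 10 FPKM or more with pollen and under 1 FPKM without (0.599%), and 82 showed the reverse (0.846%). On 6 July the counts were 44 (0.456%) and 64 (0.664%). Only 2 contigs were present with pollen alone on both dates, GAZW02094053 and GAZW02041677, and 7 without pollen alone, the most abundant being GAZW02022230 and GAZW02023800. In 5 contigs the states were exchanged between the dates. Of the 58 contigs absent without pollen on 30 June, 19 were at 10 FPKM or more in the unpollinated library of 6 July, and of the 82 absent with pollen, 25 were at 10 FPKM or more in the pollinated library of 6 July. An opposite neighbour was present for 68 of the 140 such contigs on 30 June (48.6%) and 66 of the 108 on 6 July (61.1%).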

How the data were processed

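Per the labels' protocols, polyA RNA was sequenced as paired 100 bp reads that do not mark strand. RSEM 1.2.12, Bowtie 1.0.1, bedtools 2.17, Trim Galore 0.2, R 3.1.0 and FastQC 0.10 are listed in the submitters' processing notes, with no roles. The authors deposited 1 table of log values, read here as log2(FPKM + 1). The sources used here state neither base, offset nor further normalization. Every contig reaches 1.01 in at least 1 library. FPKM was obtained by undoing the log.

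Tests used limma 3.58.1 in R 4.3.3 (lmFit, eBayes with trend) on log2(FPKM + 1), for contigs averaging 1 FPKM or more, with Benjamini-Hochberg adjustment. Folds on this scale understate differences of low contigs. Counts and plots used Python 3.11.15, pandas 2.3.3, numpy 2.4.6, scipy 1.17.1 and matplotlib 3.10.9. Counting and fits were tested on simulated data. Named contigs are, per comparison and direction, the 2 with the widest difference, the smallest p, or for presence the highest level; others are marked as chosen afterwards. Contigs and lists were chosen with earlier results of these data known.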

Additional observations from a re-analysis of the deposited data

Results flagged for a closer look

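Contigs whose pollination difference pointed in opposite directions on the 2 dates numbered 36. This turn was not tested, since each date has 1 pair of libraries. On 30 June the difference was 4.02 log2(FPKM + 1) units for GAZW02049419, 3.73 for GAZW02054249, -4.16 for GAZW02091633 and -4.13 for GAZW02019760. On 6 July it was -4.50, -4.98, 4.13 and 3.94 for the same contigs. A turn between the early and the late dates, with a 2-fold difference on all 4, was seen in 1 contig that was higher without pollen early and with pollen late, GAZW02041677, and in 2 contigs of the reverse order, GAZW02041678 and GAZW02061754. The last, named after its values were seen, stood at 23.1 and 128.8 against 5.06 and 50.3 FPKM on 10 and 22 June and at 31.9 and 69.5 against 175.1 and 147.1 FPKM on 30 June and 6 July, pollinated first. In limma the late minus early difference of GAZW02041677 was 8.04 ± 0.56 (SE) with an adjusted p of 0.336.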

How the results depend on the processing

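The limma counts of 0 held in all 20 alternatives of the test over both dates (smallest adjusted p 0.263 to 0.886, with 1188 to 3835 contigs at an unadjusted p under 0.05) and in all 15 of the late minus early test (0.13 to 0.927, 1155 to 3404). These ranges include leaving out each library of the 8-library fits, where both counts stayed at 0. The 4-library fit has no residual degree of freedom without a library. The labels give no replicate numbers; the pairing is by date, and without this block the count was 0, with 1188 at an unadjusted p under 0.05. Counts of contigs apart depended on the thresholds. In the order 30 June, 6 July, same way and opposite ways they were 292, 195, 28 and 12 at 4-fold or more, 4118, 4094, 813 and 325 with a minimum of 1 FPKM for the higher value, 153, 133, 28 and 6 at 50 FPKM or more, and 598, 492, 113 and 22 with a pseudocount of 5 FPKM. Read as a natural log, the table gave 3395, 3211, 918 and 216. Without contigs that have an opposite neighbour, an alternative added after the data were seen, 6 July had 521, same way 103 and opposite ways 13. Presence in 1 state, on 30 June, 6 July and both dates, was found for 451, 371 and 43 contigs at 5 against under 1 FPKM, 47, 39 and 2 at 20 against under 2 FPKM, and 442, 414 and 48 under the natural log; 10 against under 0.5 FPKM left 5 on both dates. The balance of directions was not stable: pollinated first, 459 and 478 on 30 June became 2404 and 1714 at a minimum of 1 FPKM; 431 and 393 on 6 July became 1981 and 2113 there, 84 and 111 at 4-fold, 236 and 256 with a pseudocount of 5 FPKM and 401 and 413 with median centring; 99 and 92 on both dates became 11 and 17 at 4-fold, and presence on both dates, 2 and 7, became 2 and 0 at 20 against under 2 FPKM. Single-contig alternatives were run only for contigs named as widest on 1 date or by smallest limma p, and none of their differences changed sign. Another pseudocount or log base cannot turn the sign of a single-date difference, so this says little. Contigs named only for both dates, for presence or for turning were not run. Depth is unknown, and 1 pool per date and state limits every statement.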
